A study of Mus musculus with 48 samples.

Results

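The nuclear genes of respiratory complexes II to V were followed in tibialis anterior muscle, a limb muscle of mostly fast fibers. They were chosen by symbol: *Sdha* to *Sdhd*, every gene whose symbol begins with *Uqcr*, *Cox4* to *Cox8*, or *Atp5*, and *Cyc1* and *Cycs*, as far as the deposited table lists them as protein coding. This gave 51 of 56748 genes, while 12 further symbols of these patterns were not protein coding. After the filter on low counts 48 were tested, 4 for complex II, 9 for complex III, 17 for complex IV, 17 for complex V, and 1 for cytochrome c. Not tested were *Cox7b2*, with 16 counts over all 48 libraries, and *Cox8c* and a second, overlapping entry of *Atp5o*, both without a single count. *Cox5b-ps*, listed as protein coding, is a near copy of *Cox5b*, so the counts of the pair are uncertain.

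Respiratory complexes sit in the inner mitochondrial membrane. Complex II (succinate dehydrogenase) passes electrons to ubiquinone, complex III passes them on to cytochrome c, complex IV (cytochrome c oxidase) hands them to oxygen, and complex V (ATP synthase) uses the resulting proton gradient to make ATP. Apart from complex II, which is built of nuclear-encoded subunits alone, these complexes join nuclear-encoded subunits to a core encoded by mitochondrial DNA, and several subunits of complex IV have a separate isoform in heart and skeletal muscle.

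Messenger RNA was sequenced in 48 libraries, 1 per mouse, from male mice of 39 to 55 weeks of age per the labels (a passage on limitations in the study names other ages). Mice were wild type (WT) or FoxP1SkmKO, and carried an orthotopic pancreatic tumor of KPC cells, a murine pancreatic cancer line, or had received saline (control), with 2 mice per genotype, condition, and circadian time (CT18, CT22, CT26, CT30, CT34, and CT38), all after 18 h in constant darkness before the first collection. FoxP1SkmKO mice are Foxp1fl/fl with Cre driven by the ACTA1 promoter, active in muscle fibers, so that other cells of the muscle keep *Foxp1*. WT is C57BL/6J in the sample labels and methods and FoxP1fl/fl without Cre in the series description. The study asked how a tumor changes the daily program of muscle transcripts and how far this needs *Foxp1*.

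Total counts ranged from 14480867 to 20787784 per library, and genes of complexes II to V took 1.56% to 2.13% of them. *Foxp1* did not separate the genotypes in these counts, with 0.430 to 0.971 FPKM (fragments per kilobase of gene and per library size) in WT control mice and 0.430 to 0.642 FPKM in FoxP1SkmKO control mice, so it does not check the genotype labels. A list of 8 skeletal muscle genes summed to between 32250 and 46125 FPKM in every library. A list of 10 adipocyte genes summed to between 52.2 and 112 FPKM, with *Ucp1* of that list at 0 throughout. The 2 WT control libraries of CT26 stood apart for the genes described here, and libraries of CT18 stood low in most groups, and counts that rest on either time are given with and without single libraries of it. In whole muscle, fewer fibers and less RNA per fiber cannot be told apart.

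To show the DNA in front of these genes, the 250 bases before the annotated start were read from RefSeq promoters (build GRCm38.p6, whereas the counts rest on mm39). Of the members' symbols, 37 matched. The 4 shown are 3 genes with lower counts in WT KPC mice at CT26, of which 1 has an ERR and an E-box match, 1 an NRF1 match, and 1 the forkhead match of the set, and *Sdha*, a gene of complex II that was not called there. They read 5′ to 3′ on the gene's strand, the gene's start following the last base, with matches of the searched motifs in capitals.
Atp5g3: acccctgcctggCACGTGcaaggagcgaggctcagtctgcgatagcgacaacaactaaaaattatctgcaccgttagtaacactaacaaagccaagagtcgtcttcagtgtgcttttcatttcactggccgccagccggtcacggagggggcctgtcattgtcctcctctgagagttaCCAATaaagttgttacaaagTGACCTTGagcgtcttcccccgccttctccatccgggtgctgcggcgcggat
Atp5k: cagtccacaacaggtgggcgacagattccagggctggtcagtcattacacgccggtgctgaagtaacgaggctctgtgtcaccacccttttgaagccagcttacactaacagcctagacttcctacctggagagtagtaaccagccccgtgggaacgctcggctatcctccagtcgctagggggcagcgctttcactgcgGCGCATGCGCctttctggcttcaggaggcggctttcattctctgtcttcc
Cox7a2: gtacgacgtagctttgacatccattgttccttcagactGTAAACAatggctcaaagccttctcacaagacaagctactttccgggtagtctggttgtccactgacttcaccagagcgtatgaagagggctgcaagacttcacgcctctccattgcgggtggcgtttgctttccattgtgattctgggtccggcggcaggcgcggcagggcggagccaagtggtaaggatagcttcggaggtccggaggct
Sdha: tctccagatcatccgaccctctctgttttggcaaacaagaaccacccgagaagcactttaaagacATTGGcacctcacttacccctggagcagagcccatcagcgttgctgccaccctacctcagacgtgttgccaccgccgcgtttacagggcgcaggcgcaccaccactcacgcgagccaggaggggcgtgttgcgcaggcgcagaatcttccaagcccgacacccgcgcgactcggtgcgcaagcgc
They lie at chr2:73911327-73911576, chr5:108434400-108434649, chr9:79759854-79760103, and chr13:74350241-74350490, all on the minus strand. *Atp5g3*, a gene of the ring subunit c of ATP synthase, holds CACGTG beginning 238 bases before its start, CCAAT 72 bases before, and TGACCTTG 52 bases before. *Atp5k*, which encodes the small membrane subunit e, holds GCGCATGC on both strands, beginning 50 and 48 bases before its start, *Cox7a2*, the widely expressed isoform of a complex IV subunit, holds TGTTTAC on the other strand 212 bases before, and *Sdha*, the flavoprotein of succinate dehydrogenase, holds CCAAT on the other strand 185 bases before.

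Motifs were searched as exact letters on both strands, and no matches of different motifs overlapped among the members. The NRF1 motif core GCGCATGC occurred in 6 of the 37 promoters (16.2%, namely *Atp5g2*, *Atp5k*, *Atp5l*, *Cox6a1*, *Cycs*, and *Sdhb*) and in 2.56% of 27025 promoters of the same length. The ETS motif CCGGAAG occurred in 9 (24.3%, against 7.83% of all), the CCAAT box in 21 (56.8%, against 37.5%), the E-box CACGTG in 4 (10.8%, against 6.86%), the ERR motif TGACCTTG in 2 (5.41%, against 1.51%), the YY1 motif AAGATGGC in 1 (2.7%, against 1.83%), and the forkhead motif TGTTTAC in 1 (2.7%, against 3.54%). Among the 21 matched genes that fell in WT KPC mice at CT26 the CCAAT box occurred in 9, the ETS motif in 4, the E-box in 4, the NRF1 motif in 3, the ERR motif in 2, the forkhead motif in 1, and the YY1 motif in 0. Among the 15 that were not called these occurred in 11, 5, 0, 3, 0, 0, and 1, in the same order. The NRF1 letters were shortened from a longer form of the motif after its matches had been counted. A match is a run of letters, not a bound site.

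Per kilobase of gene model, the transcripts spanned a wide range. *Cox6a2*, the muscle isoform of a regulatory complex IV subunit, had the highest mean, at 983 FPKM over 48 libraries (788 to 1214). *Atp5a1* and *Atp5b*, the alpha and the catalytic beta subunit of ATP synthase, followed at 938 and 726 FPKM, then *Cox8b* at 394 FPKM. The subunits of complex II lay lower, with *Sdha* at 257, *Sdhd* at 197, *Sdhb* at 185, and *Sdhc* at 82.4 FPKM. Complex III was led by the Rieske iron-sulfur protein *Uqcrfs1* (379 FPKM), the core protein *Uqcrc1* had 209 FPKM and cytochrome c1, *Cyc1*, 256 FPKM, while its partner cytochrome c, *Cycs*, had 65.2 FPKM. Of the tested genes, *Cox6b2*, an isoform known from testis, was the lowest at 0.309 FPKM, and *Cox4i2*, the hypoxia-linked isoform, had 2.34 FPKM. Since a long gene model lowers FPKM, levels of different genes compare only as far as the deposited lengths hold.

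In the families with a muscle isoform, that isoform supplied most of the FPKM. *Cox6a2* made up 97.6% ± 0.34 (SD, n = 48) of the *Cox6a* sum, *Cox8b* 93.2% ± 0.93 of *Cox8a* plus *Cox8b*, and *Cox7a1* 68.4% ± 3.63 of *Cox7a1* plus *Cox7a2*. In the other pairs it was the widely expressed isoform, with 99.4% ± 0.17 of the *Cox4i* sum from *Cox4i1* and 99.9% of the *Cox6b* sum from *Cox6b1*. Of the 3 genes for the identical subunit c, *Atp5g3* gave 57.6% ± 1.57, *Atp5g2* 22.1%, and *Atp5g1* 20.3%. In each of the 4 sets of 12 mice the mean *Cox6a2* share lay between 97.4% and 97.7% and the mean *Cox8b* share between 93.0% and 93.5%.

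**Figure D1:**
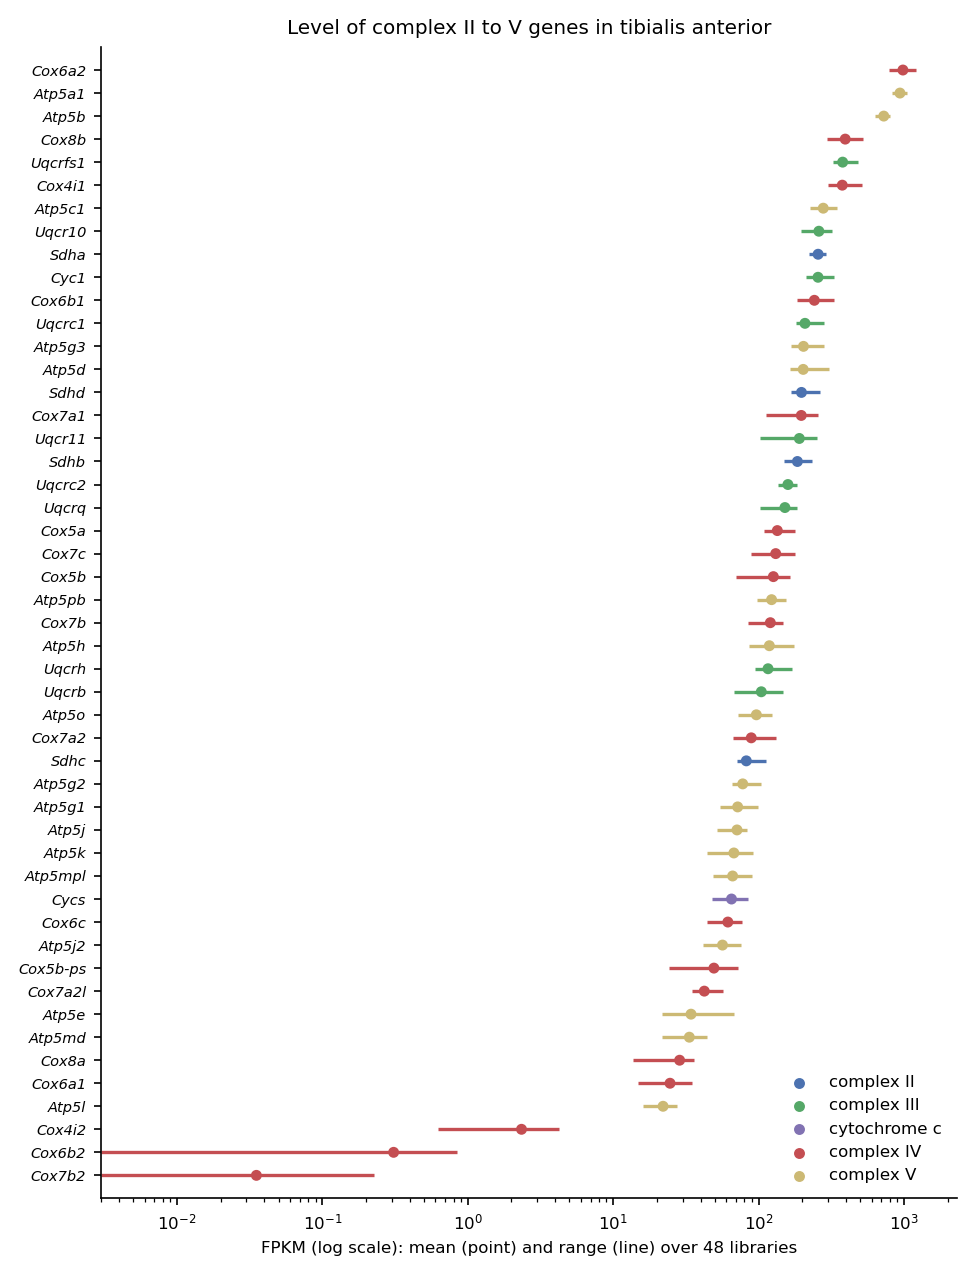
FPKM of each gene of complexes II to V on a log axis, with a point for the mean and a line for the range over 48 libraries, 1 color per complex, and genes ordered by their mean. *Cox6a2*, *Atp5a1*, and *Atp5b* are highest, at means of 983, 938, and 726 FPKM.

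As a summary over genes, each library was given the median log2 deviation of 47 members (mean FPKM of at least 1) from their own means over 48 libraries. The 2 mice of a group differed with a pooled SD of 0.0777. Both WT control mice of CT26 were the highest of all, at 0.38 and 0.28, while those of the neighboring times lay at 0.039 and 0.099 (CT22) and at 0.070 and 0.064 (CT30). WT KPC mice of CT26 lay at 0.021 and -0.079. FoxP1SkmKO control mice of CT26 lay at 0.089 and -0.0051, and FoxP1SkmKO KPC mice at -0.11 and -0.15. At CT18 all 8 libraries were below 0, from -0.34 in a FoxP1SkmKO control mouse to -0.092 in a FoxP1SkmKO KPC mouse. These medians are a description, and 1 FoxP1SkmKO KPC pair, of CT38, spanned -0.18 to 0.14.

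**Figure D2:**
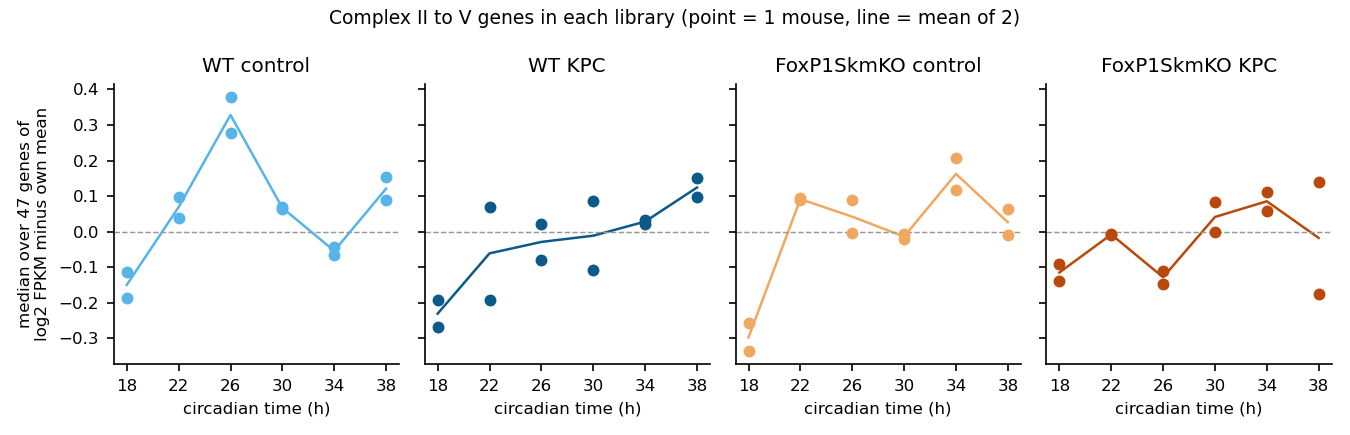
Median log2 deviation of 47 genes of complexes II to V in each of the 48 libraries, by circadian time (h), with 1 panel for each of the 4 genotypes and conditions, 1 point per mouse, and a line through the mean of 2 mice. WT control mice at CT26 stand highest (0.38 and 0.28), and all libraries of CT18 lie below 0.

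Averaged over the 6 times, *Atp5g3* and *Cyc1* were lower in WT mice with tumors, and the other members were not called. In the quasi-likelihood F test of edgeR (adjusted p under 0.05 over 15637 genes, here termed called), 2 of 48 members fell and none rose, where 0.627% of all genes tested fell. *Atp5g3* fell by 0.16 on the log2 scale (SE 0.04, adjusted p = 0.0295), from a median of 214 FPKM in control mice (188 to 280) to 193 FPKM in KPC mice (173 to 220). *Cyc1* fell by 0.12 (SE 0.03, adjusted p = 0.0437). The values of the 2 sets of 12 mice overlapped for both genes. The median over members was -0.096, against 0.0016 over all genes, with 46 of 48 members below 0. An unadjusted p under 0.05 was found for 26 members and for 2370 of 15637 genes tested. Both calls were lost without CT26 in the average, and between 0 and 8 members were called when each library was left out in turn. Among the marker lists, the neutrophil genes *S100a9* (2.06, adjusted p = 0.0269) and *S100a8* (2.83, adjusted p = 0.0315) rose in the same comparison. Of 8 skeletal muscle genes *Des* rose (0.16, adjusted p = 0.0165). Of 10 fast-fiber genes *Actn3* rose (0.18, adjusted p = 0.0257), while *Casq1* (-0.20, adjusted p = 0.074) and *Pvalb* (-0.17, adjusted p = 0.0777) did not pass. Of 8 endothelial genes *Kdr* fell by 0.27 (adjusted p = 0.0412), while *Emcn* (-0.26, adjusted p = 0.0991) and *Esam* (0.14, adjusted p = 0.293) did not pass. Of all genes tested 1.16% rose. The part of these cell types was not tested.

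In FoxP1SkmKO mice the averaged difference between KPC and control mice was called for 0 members (background 0.428%), 1 had an unadjusted p under 0.05, and DESeq2 called 0. The median over members was -0.032. Cytochrome c, *Cycs*, was lowest among the well-expressed genes at -0.12 (SE 0.05, adjusted p = 0.352). Tested directly, the effect in WT minus that in FoxP1SkmKO mice was called for 0 members by edgeR (background 0%) and 0 by DESeq2, with 3 at an unadjusted p under 0.05, and had a median of -0.070. *Cox4i2* had the largest such difference, -0.39 (SE 0.18, adjusted p = 0.764).

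At CT26, early in the rest phase, the genes of complexes II to V were lower in WT KPC than in WT control mice. This time was chosen because the study names oxidative phosphorylation among the pathways lowered there, in these same libraries. Of 48 members 26 fell and none rose, against 2.53% of all genes tested that fell. The median log2 difference was -0.36 over members and 0.0037 over all genes. For 44 members both control mice lay above both KPC mice, a separation shown by 23.5% of all genes tested. With 2 mice a side, p-values rest on the spread between mice of all 24 groups.

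**Figure D3:**
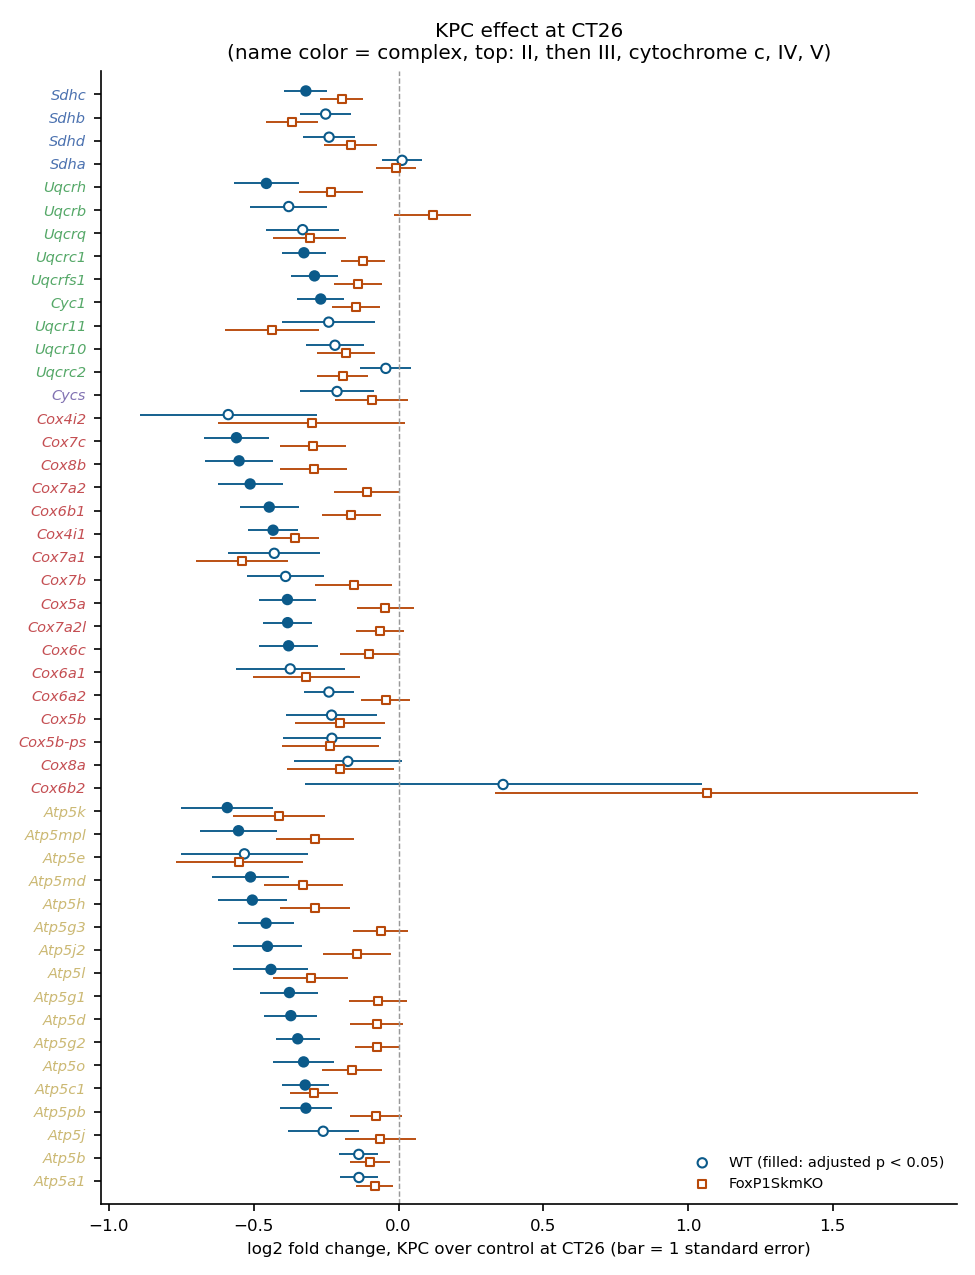
Log2 difference between KPC and control mice at CT26 for each tested gene of complexes II to V, grouped by complex, with bars of 1 standard error, in WT and in FoxP1SkmKO mice. In WT mice 46 of 48 values lie below 0 and 26 were called, and in FoxP1SkmKO mice 46 lie below 0 and 0 were called.

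Complex V had the most called genes, 13 of 17, with a median of -0.38. *Atp5k* had 85.9 and 91.4 FPKM in the WT control mice and 65.7 and 52.4 FPKM in the WT KPC mice of CT26, a log2 difference of -0.59 (SE 0.16, adjusted p = 0.0185). *Atp5mpl*, a small membrane subunit, had 89.8 and 78.7 FPKM against 67.0 and 48.4 FPKM (-0.55, SE 0.13, adjusted p = 0.0094). Neither gene overlapped between the groups, and in both the second KPC mouse was the lowest of the 4. All genes of subunit c fell: *Atp5g3* from 280 and 263 to 207 and 190.1 FPKM (-0.46, adjusted p = 0.0025), *Atp5g1* by 0.38 (adjusted p = 0.0177), and *Atp5g2* by 0.35 (adjusted p = 0.0039). In the F1 head, *Atp5d*, the delta subunit, fell by 0.37 (SE 0.09, adjusted p = 0.00985) and *Atp5c1*, the gamma subunit of the rotor, by 0.32 (SE 0.08, adjusted p = 0.0129). *Atp5a1* (-0.14, SE 0.07, adjusted p = 0.211) and *Atp5b* (-0.14, SE 0.07, adjusted p = 0.237), the most abundant pair, did not pass. Differences between subunits were not tested, and with the trend on gene length removed *Atp5d* (-0.22, adjusted p = 0.154) and *Atp5c1* (-0.17, adjusted p = 0.331) did not pass either.

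Complex IV had 8 of 17 genes called, with a median of -0.38. *Cox7c*, a small nuclear subunit, had 170.4 and 168 FPKM in control mice and 128 and 102 FPKM in KPC mice (-0.56, SE 0.11, adjusted p = 0.0019). *Cox8b*, the muscle isoform of another small subunit, had 511 and 522 FPKM against 385 and 323 FPKM (-0.55, SE 0.12, adjusted p = 0.0028). Its widely expressed counterpart *Cox8a* had 30.4 and 32.4 against 28.6 and 27.3 FPKM (-0.17, SE 0.19, adjusted p = 0.64). In the *Cox7a* pair, the widely expressed *Cox7a2* fell from 133 and 115 to 91.1 and 83.0 FPKM (-0.51, adjusted p = 0.0039), and the muscle isoform *Cox7a1*, with 255 and 239 against 199 and 169 FPKM (-0.43, SE 0.16), had an adjusted p of 0.0946. The isoforms of a pair were not tested against each other. *Cox4i1*, which binds ATP as a regulatory subunit, fell from 510 and 466 to 366 and 360.5 FPKM (-0.43, SE 0.09, adjusted p = 0.0016). *Cox6a2*, the most abundant of all, had 1214 and 1186 against 989 and 1051 FPKM, which did not pass (-0.24, SE 0.09, adjusted p = 0.0811). *Cox6b1* fell by 0.45, *Cox5a* by 0.38, *Cox6c* by 0.38, and *Cox7a2l* by 0.38 (adjusted p between 0.0038 and 0.0192). *Cox5b* (-0.23, adjusted p = 0.418) and *Cox4i2* (-0.59, SE 0.31, adjusted p = 0.266) did not pass.

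Complex III had 4 of 9 genes called (median -0.29) and complex II 1 of 4 (median -0.25). The hinge protein *Uqcrh* fell by 0.46 (SE 0.11, adjusted p = 0.00985), and *Uqcrc1* fell from 282 and 264 to 220.0 and 217 FPKM (-0.33, SE 0.08, adjusted p = 0.0061). *Uqcrfs1* fell by 0.29 (adjusted p = 0.0259) and *Cyc1* by 0.27 (adjusted p = 0.0377). The other core protein, *Uqcrc2*, had 155 and 175 FPKM in control and 159 and 162 FPKM in KPC mice, so the groups overlapped (-0.04, SE 0.09). In complex II, *Sdhc*, a membrane anchor, fell from 112 and 105 to 86.4 and 88.0 FPKM (-0.32, SE 0.07, adjusted p = 0.0060). Its partner anchor *Sdhd* (-0.24, SE 0.09, adjusted p = 0.105) and the iron-sulfur protein *Sdhb* (-0.25, SE 0.09, adjusted p = 0.0809) did not pass. *Sdha* had 247 and 243 FPKM in control and 239.9 and 256 FPKM in KPC mice, and its log2 difference was 0.01 (SE 0.07, adjusted p = 0.948). *Cycs* had 69.2 and 70.5 against 61.4 and 59.7 FPKM (-0.21, SE 0.13, adjusted p = 0.348).

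These calls rest on the libraries of CT26. Without the first WT control mouse 2 members were called and without the second 25, and without the first WT KPC mouse 19 and without the second 5. The remaining mouse is then assumed to vary like mice of the other groups. Calls over all genes also became fewer without the first WT control mouse, and more without the second. The counts therefore do not show a change particular to the members. The median over members was -0.31 without the first WT control mouse and -0.40 without the second. In a comparison added after the data were seen, WT KPC mice of CT26 were set against WT control mice of CT22 and CT30. edgeR called 0 members (background 0%), with 7 at an unadjusted p under 0.05, and DESeq2 called 0, while the median was -0.11. *Atp5k* stood at -0.35 (SE 0.14, adjusted p = 0.625) there and *Atp5md* at -0.34 (SE 0.12, adjusted p = 0.539).

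Gene length moved with this result. The tested members have a median gene length of 1631 bases, against 4045 bases over all genes tested, and 30 of 48 are among the 3128 genes of 56 to 2001 bases, the shortest of 5 classes of nearly equal size. In WT mice at CT26 the median difference between KPC and control mice over all genes ran from -0.19 in the shortest class through -0.12, -0.026, and 0.079 to 0.20 in the longest, and members of the shortest class had a median of -0.38. Of the marker lists, the adipocyte gene *Fabp4* (-0.47, adjusted p = 0.0212) and the endothelial gene *Egfl7* (-0.39, adjusted p = 0.0441) also fell there, where 2.53% of all genes tested fell. Of 5 erythroid genes none was called by edgeR, with 3 at an unadjusted p under 0.05 and *Hbb-bs* at -0.82 (adjusted p = 0.103). Their part in the result was not tested. The giant sarcomere genes *Neb* and *Ttn* rose by 0.64 and 0.55 there. With the trend on gene length removed in each library, 5 members were called, namely *Cox8b* (-0.36), *Uqcrc1* (-0.31), *Cox7c* (-0.38), *Atp5g1* (-0.41), and *Atp5l* (-0.54), and the median was -0.21. The share of all genes called after this removal is not given. Whether the loss of calls is particular to the members is therefore not shown. In FoxP1SkmKO mice the median over all genes ran from -0.050 in the shortest class to 0.039 in the longest.

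At the other times the KPC effect in WT mice was called by edgeR for 0 members, at CT18 (background 0%, 4 members at an unadjusted p under 0.05), CT22 (0%, 9), CT30 (0.0064%, 1), CT34 (0%, 3), and CT38 (0.0256%, 0), and DESeq2 on all 48 libraries called 0 at each. Medians over members were -0.073, -0.11, -0.090, 0.11, and 0.0029. Since CT26 was picked from the study's result in these libraries, setting it against the other times is no independent test of that time. The effect at CT26 minus its mean at the other 5 times was called for 13 members. All were lower at CT26, against 1.89% of all genes tested, with a median of -0.31. *Cox8b* (-0.49, SE 0.13, adjusted p = 0.0173), *Cox7c* (-0.49, SE 0.12, adjusted p = 0.0155), and *Atp5h*, a stalk subunit of ATP synthase (-0.49, SE 0.13, adjusted p = 0.0214), were among them. No member was called without the first WT control mouse of CT26 or with the length trend removed, 2 without the second WT KPC mouse of CT26, and 23 without the second WT KPC mouse of CT22.

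**Figure D4:**
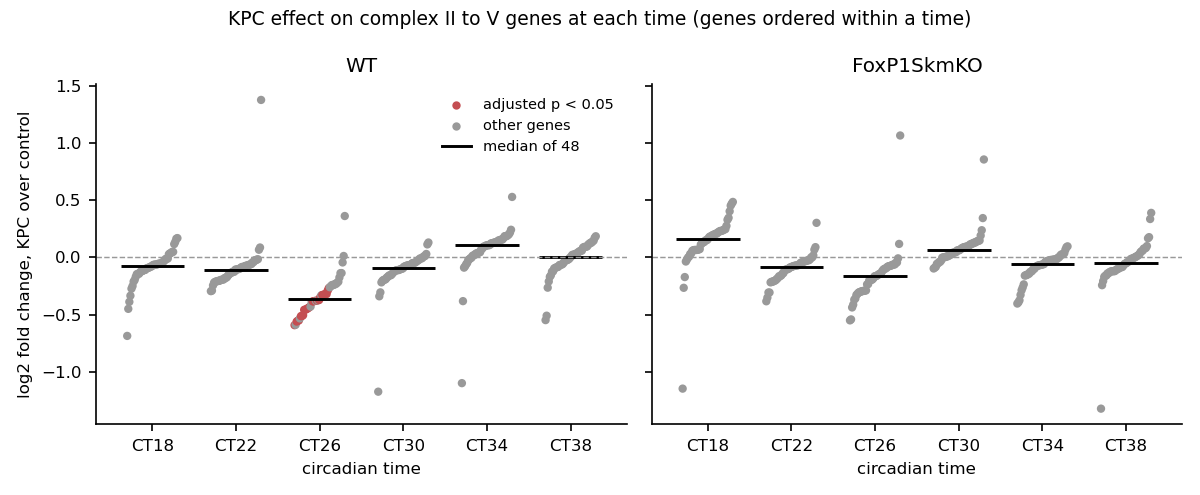
Log2 difference between KPC and control mice at each circadian time (h) for the tested genes of complexes II to V, in WT and FoxP1SkmKO mice, with the median over genes marked. The WT median is -0.36 at CT26 and lies between -0.11 and 0.11 at the other times.

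In FoxP1SkmKO mice at CT26 no member was called between KPC and control mice. edgeR called 0 members (background 0.0384%), with 17 at an unadjusted p under 0.05, while DESeq2 called 2 on all 48 libraries and 4 on the 4 libraries of the comparison. The share of all genes called by DESeq2 is not given, so its counts cannot be read as few or many. The median was -0.16, 46 of 48 members were below 0, and for 38 both control mice lay above both KPC mice, against 18.3% of all genes tested. *Cox7a1* had 231 and 200.2 FPKM in control and 144 and 154 FPKM in KPC mice (-0.54, SE 0.16, adjusted p = 0.266). *Cox7c* had 137 and 111 against 108 and 95.0 FPKM, and *Atp5k* 86.6 and 64.2 against 59.1 and 54.8 FPKM. *Cox8b* lay at 458 and 385 against 361 and 329.8 FPKM. For these genes the pairs did not overlap, and the 2 control mice differed more from each other than in WT. The log2 differences were -0.29 (SE 0.11) for *Cox7c*, -0.29 (SE 0.12) for *Cox8b*, and -0.41 (SE 0.16) for *Atp5k*. In edgeR *Cox4i1* (-0.36, SE 0.09, adjusted p = 0.159) and *Sdhb* (-0.37, SE 0.09, adjusted p = 0.167) had the lowest adjusted p-values. The largest changes were those of *Cox6b2*, a gene of low counts (1.06, SE 0.73), and *Atp5e* (-0.55, SE 0.22). The spread between control mice is given only for the genes with FPKM above. The part of the spread between control mice in the lack of calls was not tested.

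The difference between genotypes at CT26 was tested directly. The WT effect minus the FoxP1SkmKO effect was called for 0 members by edgeR (background 0.345%) and 0 by DESeq2, 8 had an unadjusted p under 0.05, and the median was -0.18. *Atp5g3* differed by -0.40 (SE 0.13, adjusted p = 0.212), *Cox7a2* by -0.40 (SE 0.16, adjusted p = 0.313), and *Uqcrb* by -0.50 (SE 0.19, adjusted p = 0.286). So for these genes a larger effect in WT mice was not shown at this depth of 2 mice per group, nor was an equal one. At the other 5 times edgeR called 0 members in FoxP1SkmKO mice (backgrounds 0.0192%, 0%, 0%, 0%, and 0.0064% from CT18 to CT38) and DESeq2 on 48 libraries 0, with 15, 1, 1, 4, and 0 members at an unadjusted p under 0.05 and medians of 0.16, -0.084, 0.062, -0.062, and -0.051. For WT minus FoxP1SkmKO at those times edgeR called 0 as well (0%, 0.0064%, 0%, 0.0064%, and 0%), with 13, 2, 2, 7, and 0 at an unadjusted p under 0.05, and DESeq2 called 1 member at CT18 and 0 at the rest. The FoxP1SkmKO effect at CT26 minus its mean at the other times was called by edgeR for 0 members (0%) and by DESeq2 for 1, with 14 at an unadjusted p under 0.05 and a median of -0.18.

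Set against the other 5 times within each group, WT control mice had high levels at CT26. Here 33 of 48 members rose and none fell, against 11.5% of all genes tested that rose, with a median of 0.33. This comparison shares the WT control mice of CT26 with the KPC effect at that time, so both hold the same 2 libraries. For 30 members both mice of CT26 lay above the 10 others of the group (10.2% of all genes tested). *Cox4i2* rose by 0.63 (SE 0.22, adjusted p = 0.0394), *Atp5d* by 0.53 (SE 0.07, adjusted p = 1.2e-06), *Uqcrh* by 0.50, *Cox7a2* by 0.45, and *Cox6b1* by 0.45. Beside its -0.33 between KPC and control mice, *Uqcrc1* had 282 and 264 FPKM in control mice at CT26 and 180 to 252 FPKM at the other times (0.42, SE 0.06, adjusted p = 2.1e-06). *Sdhc* had 112 and 105 FPKM at CT26 and 73.6 to 91.7 FPKM at the other times (0.42, SE 0.06). *Sdha* was again flat, at 247 and 243 FPKM among 229 to 279 FPKM (-0.08, SE 0.06, adjusted p = 0.315), as were *Cycs* (0.04, SE 0.10) and *Uqcrc2* (0.03, SE 0.07), none of which passed. By complex, 3 of 4 genes of complex II rose, 6 of 9 of complex III, 11 of 17 of complex IV, and 13 of 17 of complex V. Without the first mouse of CT26 15 members were called, and with the length trend removed 17, with a median of 0.16.

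Other genes differed in these mice as well, where 11.5% of all genes tested rose at CT26 and 11.9% fell. The summed FPKM of 7 erythroid genes was 246 and 330.3 in WT control mice at CT26, 81.8 to 223 in that group at other times, and 161 to 177 in WT KPC mice at CT26, and 3 of the 5 erythroid genes tested rose at CT26 in control mice, with *Hba-a2* at 1.07. Of 8 endothelial genes *Egfl7* (0.63) and *Tie1* (0.32) rose, and the list summed to 102 and 109 FPKM against 78.6 to 105.7 FPKM. Of 9 adipocyte genes tested *Fabp4* rose (0.45) and *Plin4* fell by 0.61, and the list summed to 58.2 and 62.3 against 59.2 to 82.3 FPKM. None of 8 macrophage genes was called by edgeR or had an unadjusted p under 0.05 (17.1 and 19.8 against 6.87 to 29.6 FPKM). The medians by length class ran from 0.21 in the shortest to -0.25 in the longest. Beside these shares, so few calls in the short endothelial and adipocyte lists are no result about these cell types. The part of any cell type in the result was not tested.

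The same comparison was made in the other groups. Called by edgeR were 0 members in WT KPC mice (background 0.799%, 4 at an unadjusted p under 0.05, median -0.010, DESeq2 0) and 0 in FoxP1SkmKO control mice (0.269%, 7 at an unadjusted p under 0.05, median 0.027, DESeq2 2). In neither did a member have both CT26 mice above the 10 others of its group (2.23% and 2.58% of all genes tested). Whether the difference between CT26 and other times itself differs between WT control and FoxP1SkmKO control mice was not tested. In FoxP1SkmKO KPC mice 5 members fell at CT26, against 0.838% of all genes tested, with a median of -0.12. These were *Atp5md*, a small membrane subunit (-0.45), *Cox7c* (-0.36), *Atp5c1* (-0.28), *Sdhb* (-0.28), and *Cox4i1* (-0.27). *Cox4i1* had 320 and 313 FPKM at CT26 and 346 to 423 FPKM at the other times, without overlap. Leaving out either CT26 mouse of this group left 0 called.

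**Figure D5:**
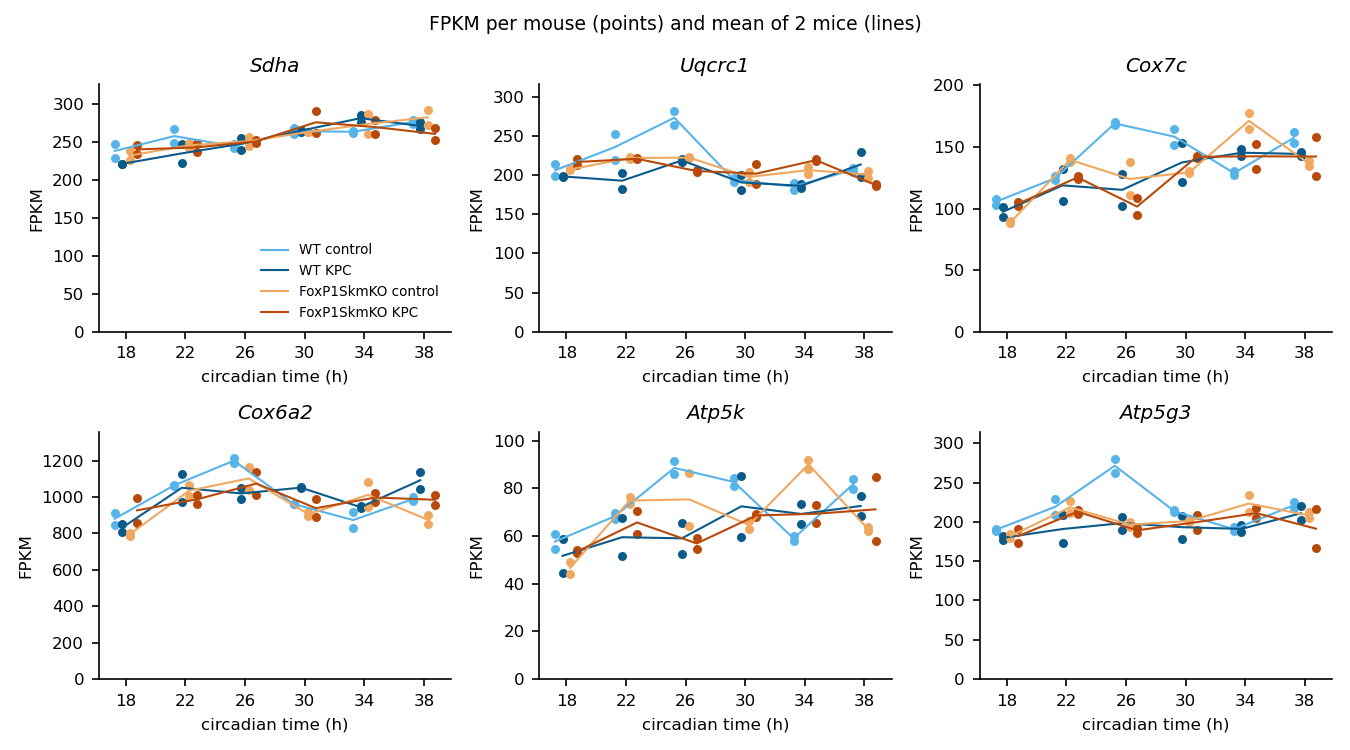
FPKM by circadian time (h) for *Sdha*, *Uqcrc1*, *Cox7c*, *Cox6a2*, *Atp5k*, and *Atp5g3*, 1 point per mouse and lines through the means, by genotype and condition. *Uqcrc1* peaks at CT26 in WT control mice (282 and 264 FPKM), *Sdha* does not (247 and 243 FPKM), and *Cox7c* and *Atp5k* are low at CT18.

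At CT18, in the middle of the active phase, the genes of complexes II to V were low. This comparison was added after the data were seen. Averaged over the 4 genotypes and conditions, 40 of 48 members fell at CT18 against the other 5 times and none rose, where 11.4% of all genes tested fell, and the median was -0.25. Without CT26 among the other times 37 fell (background 11.1%), with the length trend removed 32, and between 34 and 39 when each library was left out. By complex, 4 of 4 genes of complex II fell, 6 of 9 of complex III, 15 of 17 of complex IV, 14 of 17 of complex V, and *Cycs*.

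*Uqcr11*, a small complex III subunit, fell by 0.69 (SE 0.07, adjusted p = 4.4e-09), with 169 and 116 FPKM at CT18 in WT control, 103 and 115 in WT KPC, 112 and 107 in FoxP1SkmKO control, and 110.3 and 185 in FoxP1SkmKO KPC mice. In WT control mice it had 184 to 234 FPKM at the other times, so the values did not overlap there. *Cox5b*, a zinc-binding complex IV subunit, fell by 0.66 (SE 0.06), from 130 to 148 FPKM at the other times in WT control mice to 121 and 80.4 FPKM at CT18. The near copy *Cox5b-ps* fell by 0.66 as well and cannot be told apart from it. *Cox7a1* also fell by 0.66 (SE 0.06), with 159 and 133 FPKM at CT18 in WT control and 185 to 255 FPKM at the other times. *Atp5md* fell by 0.50 (SE 0.05) and *Cox8a* by 0.49 (SE 0.08). *Cycs* fell by 0.44, while *Atp5a1* (-0.02, SE 0.03), *Uqcrc1* (-0.02, SE 0.03), and *Uqcrc2* (-0.05, SE 0.03) did not pass.

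Within groups, 17 members fell at CT18 in WT control mice (background 0.883%, median -0.28), 21 in WT KPC mice (4.07%, median -0.25), 31 in FoxP1SkmKO control mice (3.21%, median -0.40), and 2 in FoxP1SkmKO KPC mice (0.396%, median -0.15). These counts are not a test of differences between groups. Without CT26 among the other times 8 fell in WT control mice (0.403%). The counts turn on single libraries of CT18, by leaving out each library of a group in turn, an alternative added after the data were seen. In WT control mice edgeR called 3 without the first and 0 without the second CT18 mouse, in WT KPC mice 3 and 6, in FoxP1SkmKO control mice 12 and 11, and in FoxP1SkmKO KPC mice 1 and 4. Without the first FoxP1SkmKO KPC mouse of CT38 10 were called in that group, and without any 1 of 7 others 1. These leave-out counts stand without the share of all genes called in the same fit. In WT control mice calls over all genes became fewer as well. The median over members there was -0.30 without the first CT18 mouse and -0.21 without the second. With the length trend removed 7, 14, 21, and 1 of the calls from all libraries remained, from WT control to FoxP1SkmKO KPC mice. The share of all genes is not given for these either. Both CT18 mice lay below the 10 others of their group for 20, 20, 35, and 2 members, where 3.11%, 5.54%, 5.56%, and 2.06% of all genes tested did. In FoxP1SkmKO KPC mice *Cox5b* had 80.0 and 119 FPKM at CT18 and *Uqcr11* 110.3 and 185 FPKM, so that 1 of the 2 mice lay among the other times.

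Macrophage genes moved the other way at CT18. All 8 listed rose (8.99% of all genes tested rose), with a median of 0.72 (*Csf1r* 0.85, *Mrc1* 0.75, *C1qa* 0.74). They summed to 20 and 23.1 FPKM in WT control, 32.6 and 42 FPKM in WT KPC, 18.2 and 34.9 FPKM in FoxP1SkmKO control, and 15 and 22.1 FPKM in FoxP1SkmKO KPC mice at CT18, against 6.87 to 29.6, 8.95 to 36.3, 6.18 to 28, and 8.82 to 23.5 FPKM at the other times, in the same order. Of 5 erythroid genes tested 2 rose (*Alas2* 0.50, *Hbb-bs* 0.44), and of 10 fast-fiber genes 3 fell, *Pvalb* by 0.25, *Tnni2* by 0.19, and *Tnnt3* by 0.17. Of 8 endothelial genes *Egfl7* fell by 0.37 and of 9 adipocyte genes *Fabp4* by 0.36, where 11.4% of all genes tested fell. Calls near that share are no result about endothelial or adipocyte genes. Of 8 skeletal muscle genes 5 rose, among them *Ttn* (0.21), *Neb* (0.18), and *Des* (0.15). Of 3 neutrophil genes tested none was called by edgeR, with 1 at an unadjusted p under 0.05. Over all genes the median ran from -0.093 in the shortest length class to 0.055 in the longest, and members of the shortest class had -0.32. Their part in the result was not tested.

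Between genotypes few members were called in the averages. Among control mice FoxP1SkmKO minus WT was called for 1 member, *Uqcrb*, a small complex III subunit that fell by 0.19 (adjusted p = 0.0411), where 1.58% of all genes tested fell. The median was -0.061, with 44 of 48 members below 0. In edgeR 11 members had an unadjusted p under 0.05, as had 2682 of 15637 genes tested. *Uqcrb* ranged from 68.6 to 148 FPKM in FoxP1SkmKO control and from 81.9 to 138 FPKM in WT control mice, so the sets overlapped. The call was lost without CT26 in the average and with the length trend removed. Among KPC mice edgeR called 0 members (background 0.32%), none had an unadjusted p under 0.05, and DESeq2 called 0, with a median of -0.0012.

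A sinusoid of 24 h was fitted to the FPKM of 12 mice in each genotype and condition, as the study did for its rhythm calls at an unadjusted p under 0.01. In WT control mice 0 of 49 members with varying FPKM were rhythmic by this F test (background 4.92%), with 14 at a p under 0.05, and in FoxP1SkmKO control mice 0 (4.07%), with 9. In WT KPC mice (n = 12) 4 members passed (4.22%): *Sdha* (p = 0.00125, amplitude 10.8% of the mean, peak at CT33.2), *Atp5mpl* (p = 0.00272, 20.4%, CT33.8), *Cox4i2* (p = 0.00542, 35.8%, CT21.9), and *Uqcrb* (p = 0.00544, 15.1%, CT34.0). In FoxP1SkmKO KPC mice (n = 12) 3 passed (2.63%): *Uqcr11* (p = 0.00532, 24.3%, CT33.4), *Atp5b* (p = 0.00681, 5.01%, CT32.3), and *Sdha* (p = 0.00785, 7.05%, CT32.4). None of these passed adjustment over all genes. A share near the background is no result about the members. The median amplitude was 12.1% in WT control, 7.28% in WT KPC, 8.83% in FoxP1SkmKO control, and 7.30% in FoxP1SkmKO KPC mice.

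Rhythms of control and KPC mice were then set against each other by an F test of the sinusoid terms. In WT mice (n = 24) 3 of 49 members differed at an unadjusted p under 0.05 (background 5.07%), *Atp5c1* (p = 0.0128), *Atp5g2* (p = 0.0205), and *Cox4i1* (p = 0.0455). In FoxP1SkmKO mice (n = 24) 3 did (5.09%), *Cox6b2* (p = 0.0116), *Sdhb* (p = 0.0159), and *Sdhc* (p = 0.0273). None passed adjustment.

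The rest of the pathway is given by lists. Of 38 nuclear genes of complex I, the entry point for NADH, 23 fell in WT KPC mice at CT26 and none rose (2.53% of all genes tested fell). The median of complex I was -0.36, equal to that of complexes II to V. *Ndufb1* (-0.89, SE 0.16), *Ndufc2* (-0.60, SE 0.12), and *Ndufb9* (-0.50, SE 0.10) led it. Of 35 tested assembly factors of complexes II to V 4 fell (median -0.22), among them *Sdhaf4*, which helps to mature *Sdha* (-0.67), *Higd2a* (-0.39), and *Tmem70*, needed for ATP synthase (-0.29). Of 13 subunits encoded by mitochondrial DNA none was called by edgeR, with 2 at an unadjusted p under 0.05 (median -0.13). Of 19 regulators of respiratory genes *Ppara*, a lipid-sensing nuclear receptor (1.05, SE 0.29, adjusted p = 0.0202), and *Gabpb2*, a subunit of the ETS-type factor NRF2 (0.47, SE 0.14, adjusted p = 0.0292), rose, where 4.64% of all genes tested rose, and the median was 0.11. In FoxP1SkmKO mice at CT26 0 genes of each of these lists were called by edgeR (background 0.0384%), with 8, 4, 0, and 2 at an unadjusted p under 0.05. Medians were -0.15 for complex I, -0.10 for assembly factors, -0.085 for mitochondrially encoded subunits, and 0.0035 for regulators.

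At CT26 against other times in WT control mice, 26 of 38 complex I genes rose (median 0.30), 15 of 35 assembly factors rose (median 0.21), 1 mitochondrially encoded subunit rose and 2 fell, and of 19 regulators 1 rose and 5 fell (11.5% of all genes tested rose and 11.9% fell), with *Ppara* at -1.36, *Esrrg*, an estrogen-related receptor, at -0.59, and *Mef2c* at -0.39. At CT18 over the 4 groups, 32 complex I genes fell (median -0.30), 16 assembly factors fell (median -0.13), 5 mitochondrially encoded subunits fell (median 0.010), and of 19 regulators 3 rose and 2 fell (8.99% of all genes tested rose and 11.4% fell), with *Esrra*, an estrogen-related receptor, falling by 0.21 and the coactivator *Ppargc1a* rising by 0.19. In WT KPC mice at CT26, of 10 slow-fiber genes none was called by edgeR or had an unadjusted p under 0.05 (median 0.25). Of 10 fast-fiber genes *Tnni2* and *Pvalb* fell by 0.41 and 0.40 and *Myh4* rose by 0.36 (2.53% of all genes tested fell and 4.64% rose).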

How the data were processed

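Tibialis anterior messenger RNA was sequenced as paired-end reads and aligned to mm39. The methods name STAR and HTSeq, whereas the submitters' processing notes name HISAT2 2.0.5 and DESeq2 1.20.0. The authors deposited raw read counts per gene for each comparison of 4 libraries, and FPKM, which divides the counts by the deposited gene length and a scaled library size. Counts of all genes in 48 libraries were recovered from the deposited FPKM and matched the deposited counts, with a largest distance from a whole number of 4.42e-09. A gene that a comparison table does not list had at most 1 count in its libraries. Counts divided by size factors, and the fold changes and p-values of the authors' own comparisons, were not used.

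A quasi-likelihood model (edgeR 4.0.16, R 4.3.3) with 24 groups was fitted to all 48 libraries after filterByExpr (15637 genes, prior degrees of freedom 8.61) and TMM scaling. Benjamini-Hochberg adjusted p-values under 0.05 over all genes were called, and the standard errors rest on the spread between mice. Replicates are separate mice per the labels. Rhythms were fitted to the deposited FPKM with a 24 h cosine (numpy 2.4.6, scipy 1.17.1, pandas 2.3.3, Python 3.11.15). Both tests were tested on simulated data.

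Named with values were genes fixed by role, in each comparison up to 5 called members with the largest change in each direction, up to 6 rhythmic members per group, up to 3 with the largest change where none passed, and up to 3 genes with the lowest p from each list. No member carries the symbol Atp5if1. *Uqcrc2*, *Atp5c1*, *Atp5h*, *Cox5b*, *Cox7a2l*, *Uqcrh*, *Atp5d*, and other members named outside this rule were chosen after their values were seen. The members, lists, and tests were chosen with earlier results of these data known.

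Alternatives were RLE scaling, DESeq2 1.42.0 on 48 or on 4 libraries, no filter on low counts, the replicate number as a block, removal of the trend on gene length (lowess), CT26 left out of averages, each library left out, log2 scales, and adjusted thresholds for rhythms. Unless a background is given, counts of members under an alternative stand without the share of all genes called in it. Such counts do not show whether a change is particular to the members.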

Additional observations from a re-analysis of the deposited data

Results flagged for a closer look

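The effect of tumors on genes of complexes II to V in WT mice differed between CT26 and the mean of the other 5 times for 13 members, by a test of the difference itself in edgeR (adjusted p under 0.05 over 15637 genes). In each the log2 difference between KPC and control mice was lower at CT26, as it was for 1.89% of all genes tested.

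In complex IV this difference of differences was -0.49 for *Cox8b*, -0.49 for *Cox7c*, -0.45 for *Cox6b1*, -0.44 for *Cox7a2*, -0.44 for *Cox7a2l*, and -0.43 for *Cox4i1*. In complex V it was -0.49 for *Atp5h*, -0.49 for *Atp5mpl*, -0.39 for *Atp5g2*, -0.36 for *Atp5g3*, and -0.33 for *Atp5d*. It was -0.47 for *Uqcrh* of complex III and -0.32 for *Sdhc* of complex II.

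All 13 rest on the WT libraries of CT26, a time chosen from the study's result in these same libraries. Without the first WT control mouse of that time 0 members were called by edgeR, and with the trend on gene length removed 0 as well. DESeq2 on all 48 libraries called 23. These alternative counts stand without the share of all genes called in the same fit. Without the first WT control mouse of CT26 calls over all genes became fewer as well, and the median over members was -0.28.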

How the results depend on the processing

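No member that was called changed its sign under an alternative. The count of 26 members called in WT mice at CT26 was 26 with RLE scaling and with the replicate block, 30 with DESeq2 on all libraries and with no filter, 31 with DESeq2 on 4 libraries, and 5 with the length trend removed. The 33 called at CT26 against other times in WT control mice became 17 with the length trend removed. The 13 called for CT26 minus other times became 0 with the length trend removed, 19 with no filter, and 23 with DESeq2. With the length trend removed, 1 was called for the averaged KPC effect in WT mice, 0 for genotype in control mice, and at CT18 7 in WT control mice, 4 there without CT26, and 1 in FoxP1SkmKO KPC mice. The cause of these changes was not tested.

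With no filter, edgeR called 12 members for the averaged KPC effect in WT mice (2 with the filter), 3 for genotype in control mice, 3 for KPC in WT mice at CT18, and in FoxP1SkmKO mice 3 at CT18, 5 at CT26, and 1 at CT38. It called 5 and 1 for WT minus FoxP1SkmKO at CT18 and CT30, 2 and 10 for CT26 against other times in FoxP1SkmKO control and KPC mice, 5 for CT26 minus other times in FoxP1SkmKO mice, 1 for WT KPC mice of CT26 against WT control mice of CT22 and CT30, 11 at CT18 in FoxP1SkmKO KPC mice, and 17 at CT18 in WT control mice without CT26. DESeq2 on 48 libraries called 4 for the averaged KPC effect in WT mice, 2 for KPC in FoxP1SkmKO mice at CT26 (4 on the 4 libraries), 1 for WT minus FoxP1SkmKO at CT18, 2 at CT26 in FoxP1SkmKO control mice, 1 for CT26 minus other times in FoxP1SkmKO mice, 5 at CT18 in FoxP1SkmKO KPC mice, and 16 at CT18 in WT control mice without CT26. RLE scaling called 1 at CT18 in FoxP1SkmKO KPC mice. CT26 left out of the average left 0 for the KPC effect in WT mice and 0 for genotype in control mice. Counts of members in this section stand without the share of all genes called under the same setting. They therefore do not show whether a change is particular to the members.

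Leaving out each library gave 0 to 8 members for the averaged KPC effect in WT mice, 0 to 1 in FoxP1SkmKO mice and for genotype in control mice, 2 to 25 for WT mice at CT26, 0 to 23 for CT26 minus other times, 15 to 34 at CT26 in WT control mice, and 0 to 8 at CT26 in FoxP1SkmKO KPC mice. It gave 0 to 1 for WT mice at CT34, 0 to 4 for FoxP1SkmKO mice at CT18 and at CT38, and 0 to 5 for WT minus FoxP1SkmKO at CT18. At CT18 in single groups, added after the data were seen, it gave 0 to 15 in WT control, 3 to 25 in WT KPC, 11 to 31 in FoxP1SkmKO control, and 1 to 10 in FoxP1SkmKO KPC mice. It was not run for CT18 without CT26 among the other times, or for WT KPC mice of CT26 against WT control mice of CT22 and CT30. Rhythmic members numbered 0 to 3 in WT control, 1 to 9 in WT KPC, 0 to 3 in FoxP1SkmKO control, and 1 to 3 in FoxP1SkmKO KPC mice. Adjustment over all genes left 0 in WT KPC and 0 in FoxP1SkmKO KPC mice, and over genes whose mean FPKM reached 1 it left 1 and 0.

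Replicate numbers did not pair the mice: of 276 pairs of groups 12 had a correlation of deviations over 0.1, with a median of -0.0038. The replicate block called 1 member at CT18 in FoxP1SkmKO KPC mice in place of 2, and changed no other count by over 1.5 times. Low counts limited *Cox7b2*, *Cox6b2*, *Cox4i2*, *Cox8c*, and the second *Atp5o*, and 2 mice per group limit every comparison at a single time.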
